A study of Homo sapiens with 4 samples.

Results

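Forkhead factors were examined in HaCaT cells, a spontaneously immortalised human keratinocyte line, that had been transfected with ALKBH5 siRNA (siALKBH5) or with a control siRNA (siControl). The 10 genes described are FOXJ1, FOXJ2, FOXJ3, FOXK1, FOXK2, FOXN3, FOXO1, FOXO3, FOXP1 and FOXQ1. They were taken by gene symbol from the 58735 genes of the deposited tables, which hold 49 protein-coding forkhead genes in all, and the other 39 are summarised where they bear on a comparison. The list was selected on the counts of the same knockdown comparison, with its earlier results in view. The knockdown values of the 10 genes are therefore given as a description, without p-values. The other gene lists below were also chosen with earlier results of these data known.

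The siControl cells are labelled wild type and received a normal control siRNA, the siALKBH5 cells an siRNA against ALKBH5, both by lipofection, and each group had 2 libraries of poly-A RNA. The labels do not say whether the libraries came from separate cultures, nor which of the study's ALKBH5 siRNAs was used, so the tests below measure the spread between these libraries only. Library totals ranged from 16017502 to 18837807 counts. Levels are given as CPM (counts scaled to library size with TMM factors) for a gene between libraries, and as FPKM (counts scaled to library size and to the listed gene length) between genes. ALKBH5, which encodes the m6A demethylase targeted by the siRNA, stood at 90.7 ± 4.42 CPM (SD, n = 2) in siControl and at 50.4 ± 1.13 CPM (SD, n = 2) in siALKBH5, a log2 fold change of -0.85 ± 0.05 (SE). The keratinocyte identity of the libraries was checked with 12 markers, all of which passed the expression filter, with a summed level of 19300 to 19700 CPM in siControl and 25200 CPM in both siALKBH5 libraries. Of these, KRT5, KRT14, KRT6A and SFN were higher and KRT17, TP63 and ITGB4 lower at an adjusted p under 0.05. Among markers of other cell types, 4 of the 7 fibroblast markers, 3 of the 5 melanocyte markers, 2 of the 4 endothelial markers and 3 of the 5 leukocyte markers had at most 3 counts in every library, COL1A2, PDGFRA, PDGFRB, TYR, TYRP1 and KDR being at 0 in all of them. Others were present, with 267 to 310 counts per library for the fibroblast marker COL1A1, 293 to 501 for the endothelial marker VWF, 147 to 237 for CDH5 and 38 to 61 for the melanocyte marker PMEL. Their summed levels were 18.7 to 22.8 CPM (fibroblast), 2.72 to 3.89 CPM (melanocyte), 32.5 to 35.5 CPM (endothelial) and 2.30 to 4.23 CPM (leukocyte). The fibroblast markers DCN and LUM and CDH5 were lower after knockdown, while VWF and CD14 were higher. Their part in the results was not tested.

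Forkhead factors are transcription factors that bind DNA through a shared winged-helix domain, in which the third helix enters the major groove. Members differ in the tissues they serve. FOXJ1 switches on the motile cilium programme, FOXO1 and FOXO3 act downstream of insulin and growth factor signalling and leave the nucleus when AKT phosphorylates them, FOXK1 and FOXK2 are broadly expressed factors linked to metabolism and autophagy, and FOXP1 and FOXN3 act mostly as repressors. FOXQ1 is an epithelial factor known from hair development and carcinoma. The study asked how m6A and ALKBH5 act in wound re-epithelialization, and used RNA sequencing to find transcripts that fall after ALKBH5 knockdown in HaCaT cells.

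The family is visible in the sequence itself. For 9 of the 10 factors, the 24 bases that encode the conserved start of the third helix are printed below because they are the stretch by which the genes are recognised as relatives, and capitals mark bases that differ from FOXJ1. They were found by translating the coding sequence and searching for asparagine, serine or alanine, isoleucine or valine, arginine, histidine, asparagine, leucine and serine in a row. They are from GENCODE 29 transcripts on GRCh38, 5′ to 3′ on the coding strand, and each lies within a single coding exon.
FOXJ1: aattcaatccgccacaacctgtct
FOXJ2: aattcaatAcgGcacaacctTtct
FOXK1: aattcTatccgGcacaacctCtct
FOXK2: aattcaatTcgccacaaTctCtct
FOXO3: aaCtcCatccgGcacaacctgtcA
FOXO1: aattcaatTcgTcaTaaTctgtcC
FOXJ3: aattcCatAcgAcaTaaTctgtcA
FOXQ1: aaCtcCGtGcgccacaacctTtcG
FOXN3: aaCtcaGtGAgAcacaaTTtAtcA
FOXJ2, FOXK1 and FOXK2 each differed from FOXJ1 at 3 of the 24 bases, FOXO3 at 4, FOXO1 at 5, FOXJ3 and FOXQ1 at 6, and FOXN3 at 9. In all 6 of FOXJ2, FOXJ3, FOXK1, FOXK2, FOXO1 and FOXO3 the encoded residues were those of FOXJ1, whereas FOXQ1 and FOXN3 differed at 1 residue. The FOXJ1 stretch lies on chromosome 17 from 76138097 to 76138120 (minus strand) and the FOXQ1 stretch on chromosome 6 from 1313197 to 1313220 (plus strand).

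The 10 factors were expressed at very different levels in control cells. FOXQ1 stood at 134 and 132 FPKM in the siControl libraries, far above the rest. FOXO3 followed at 19.3 and 19.5 FPKM, FOXK1 at 9.54 and 9.53 FPKM, and FOXJ3 at 7.79 and 7.74 FPKM. FOXK2 (6.02 and 6.43 FPKM) and FOXJ2 (6.05 and 6.29 FPKM) overlapped, so that their order could not be told from 2 libraries. FOXO1 came next at 5.10 and 5.53 FPKM and FOXN3 at 3.88 and 4.17 FPKM. FOXJ1 was near the bottom of the order at 1.75 and 1.5 FPKM, and FOXP1 was lowest at 0.197 and 0.152 FPKM. Thus, 8 of the 9 neighbouring pairs did not overlap in siControl, and the order of the group means was the same in siALKBH5. The level of FOXP1 is per kilobase of a listed length of 36714 bases, which sums the exons of all its annotated transcripts.

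**Figure D1:**
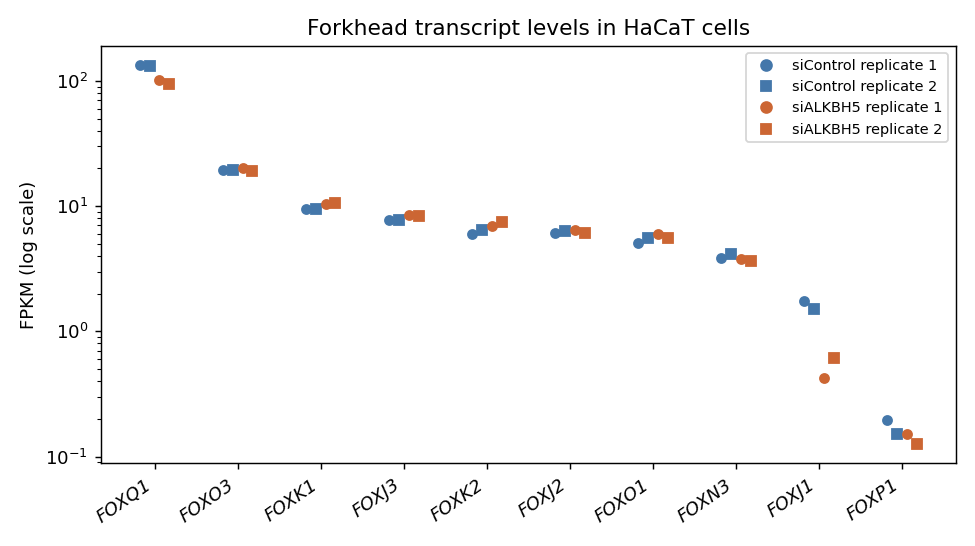
FPKM (log scale) of the 10 forkhead factors in each of the 4 libraries, ordered by their mean in siControl. FOXQ1 lies near 133 FPKM in siControl and FOXP1 near 0.175 FPKM, and FOXJ1 is the gene whose siALKBH5 points (0.422 and 0.615 FPKM) lie farthest below its siControl points.

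FOXQ1 alone made up 45.6% and 45.3% of the summed FPKM of all 49 forkhead genes in the siControl libraries, and 37.4% and 35.5% after knockdown. The forkhead sum was 293 and 292 FPKM in siControl against 271 and 264 FPKM in siALKBH5. Without FOXQ1, it was 159 and 160 FPKM in siControl against 169 and 170 FPKM in siALKBH5. The largest rise within this remainder was that of FOXM1, from a mean of 8.38 FPKM in siControl to 17.8 FPKM in siALKBH5. Some of its genes were lower, such as FOXA1, with means of 23.3 FPKM in siControl and 20.8 FPKM in siALKBH5. FOXJ1 contributed 0.597% and 0.515% of the sum in siControl and 0.156% and 0.233% in siALKBH5.

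Knockdown of ALKBH5 was accompanied by lower FOXJ1 and FOXQ1 and by slightly higher FOXK1 and FOXK2, while the other 6 factors were not called. All 10 factors passed the expression filter. As a description only, since the list was selected on this comparison, 4 of the 10 passed an adjusted p under 0.05 in edgeR's quasi-likelihood test in either direction, beside 36.6% of the 15075 genes tested. Of these, 2 were lower, beside 17.3% of genes tested, and 2 were higher, beside 19.3%. Where the log2 fold change also had to reach 1 in size, FOXJ1 was the only factor left, beside 1.3% of the genes tested for the lower direction and 1.62% for the higher. The siALKBH5 libraries were both below the siControl libraries for 3 factors (33.5% of genes tested) and both above for 4 (32.8%), and the groups overlapped for the other 3. The median log2 fold change of the 10 was 0.04, beside -0.01 over all genes tested.

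FOXJ1 (ENSG00000129654, chromosome 17 from 76136333 to 76141299, minus strand) encodes the master regulator of motile ciliogenesis. Its counts were 74 and 71 with siControl against 21 and 27 with siALKBH5, or 4.59 and 3.95 CPM against 1.12 and 1.64 CPM. Both knockdown libraries were below both controls, and the gap between the groups was larger than the spread within either. The knockdown mean was 32.4% of the control mean, and the log2 fold change was -1.63 (SE of 0.27). The log2 ratio was -2.03 in replicate 1 and -1.27 in replicate 2. With so few counts, the estimate moved between -1.91 and -1.37 as each library was left out. In bulk RNA, fewer cells that express FOXJ1 and less FOXJ1 RNA per cell cannot be told apart.

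The antisense gene RNF157-AS1 overlaps FOXJ1 on the other strand, and no strand marking is described for the libraries. The counts of RNF157-AS1 were 31 and 52 with siControl against 36 and 28 with siALKBH5. Its groups overlapped, and its log2 fold change was -0.41 (SE of 0.30, adjusted p = 0.30, edgeR). The exons of the pair share 9 of the 2641 exon bases of FOXJ1, or 0.341%.

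FOXQ1 (ENSG00000164379, chromosome 6 from 1312440 to 1314748, plus strand) gave 4946 and 5451 counts with siControl against 4407 and 3594 with siALKBH5. These correspond to 307 and 303 CPM against 236 and 218 CPM. The groups were well apart, with a control spread of 2.83 CPM (SD, n = 2) and a knockdown spread of 12.4 CPM (SD, n = 2). The knockdown mean was 74.5% of the control mean, and the log2 fold change was -0.42 (SE of 0.03), with ratios of -0.38 and -0.47 in replicates 1 and 2. Its mean level was 133 FPKM in siControl and 97.5 FPKM in siALKBH5, a difference larger than the siControl level of each of the other 9 factors. None of its 2309 exon bases overlaps another gene.

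**Figure D2:**
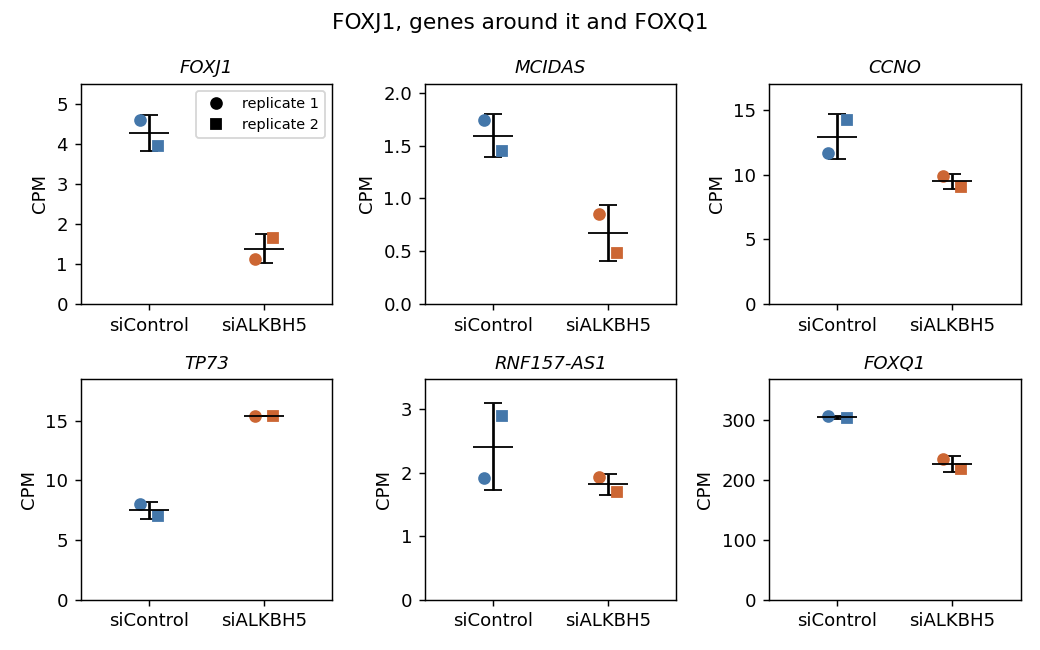
CPM of FOXJ1, the ciliogenesis regulators MCIDAS, CCNO and TP73, the antisense gene RNF157-AS1 and FOXQ1 (points, libraries by replicate; bars, mean ± SD, n = 2; axes start at 0). siALKBH5 is below siControl without overlap for FOXJ1, MCIDAS, CCNO and FOXQ1 and above it for TP73, whereas the groups of RNF157-AS1 overlap.

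The FOXK factors were higher by a small amount. FOXK1 had 124 CPM in both siControl libraries and 137 and 138 CPM in the siALKBH5 libraries, a log2 fold change of 0.15 (SE of 0.04). FOXK2 had 59.8 and 63.8 CPM in siControl and 70.2 and 74.6 CPM in siALKBH5, a log2 fold change of 0.23 (SE of 0.05). In both genes the groups did not overlap, and the ratios of the replicates were near-equal, at 0.14 and 0.16 for FOXK1 and at 0.23 in each replicate for FOXK2. Neither was called by limma on log2 FPKM. FOXK2 shares 14.1% of its exon bases with genes on the opposite strand, mostly with AC124283.1, which had 0 counts in all 4 libraries. WDR45B, which shares 53 bases with it and encodes an autophagy protein, had 67.4 and 67.1 CPM in siControl and 76.2 and 75.3 CPM in siALKBH5 and was also higher (log2 fold change 0.17, standard error 0.05, adjusted p = 0.0059 by edgeR).

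The FOXO factors, effectors of insulin and growth factor signalling, stayed close to their control levels. FOXO3 had 148 and 149 CPM in siControl and 156 and 149 CPM in siALKBH5, with a log2 fold change of 0.03 (SE of 0.04). FOXO1 had 31.6 and 34.2 CPM in siControl and 37.3 and 34.8 CPM in siALKBH5, with a log2 fold change of 0.13 (SE of 0.07). The FOXO1 groups did not overlap, but its ratio was 0.24 in replicate 1 and 0.02 in replicate 2, and it was not called. The processed pseudogene FOXO3B, a copy of FOXO3, had 36 to 41 counts per library against 2389 to 2913 for FOXO3, and FOXO1B had 0. Reads of FOXO3 that match FOXO3B as well could have been lost or split in counting.

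The other J-class factors, broadly expressed relatives of FOXJ1, were close to their control levels. FOXJ2 had 37.9 and 39.3 CPM in siControl and 40.5 and 39.0 CPM in siALKBH5, with a log2 fold change of 0.04 (SE of 0.07) and overlapping groups. FOXJ3 had 53.4 and 53.0 CPM in siControl and 58.6 and 57.6 CPM in siALKBH5, with a log2 fold change of 0.13 (SE of 0.06). The FOXJ3 groups did not overlap, yet the gene was not called.

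The repressors FOXN3 and FOXP1 had negative log2 fold changes, and neither was called. FOXN3 had 42.6 and 45.7 CPM in siControl and 42.4 and 40.5 CPM in siALKBH5, with a log2 fold change of -0.09 (SE of 0.07), and the groups were separated only by the narrow gap between 42.6 and 42.4 CPM. FOXP1 gave 116 and 100 counts with siControl against 104 and 76 with siALKBH5, with overlapping CPM and a log2 fold change of -0.31 (SE of 0.18). Its standard error was the largest of the 10 after that of FOXJ1. FOXP1 shares 6.92% of its exon bases with AC097634.4, an overlapping coding gene on the same strand that had 0 counts in all libraries, and FOXN3 shares 10.1% with other genes. Of the other genes that run over a member, FOXN3-AS1 had 13 to 19 counts per library and LINC00598, over FOXO1, 12 to 22, with log2 fold changes of 0.00 (SE of 0.43) and -0.18 (SE of 0.45).

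**Figure D3:**
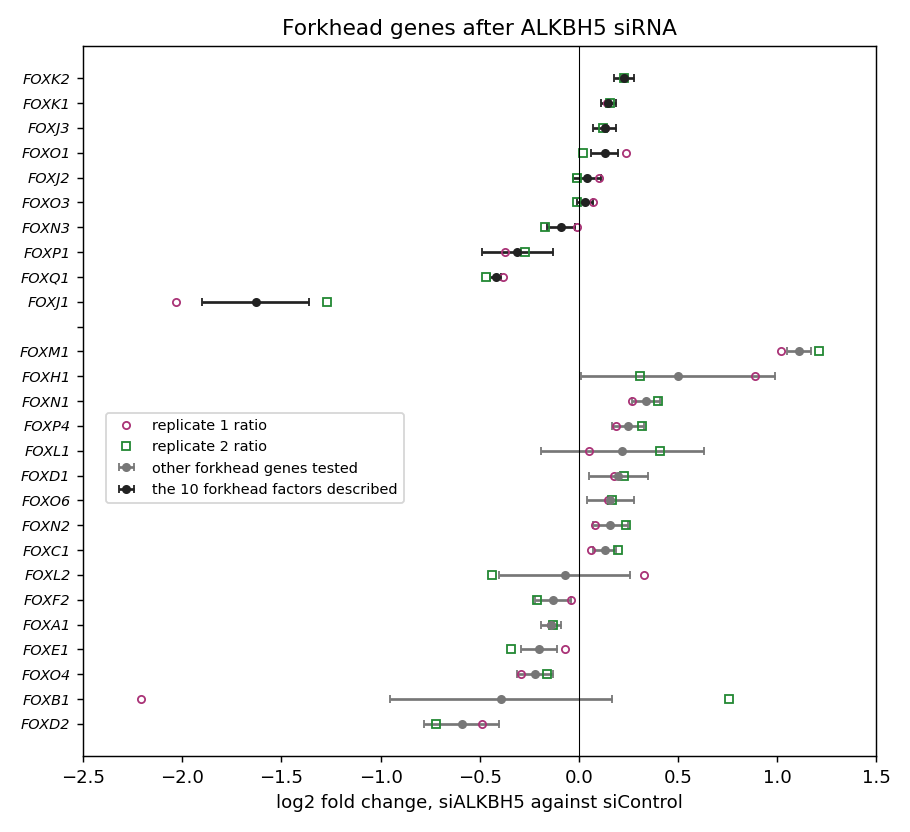
Log2 fold change of siALKBH5 against siControl for the 10 forkhead factors (black) and the 16 other forkhead genes tested (grey), as the edgeR estimate ± standard error, with the ratio of each replicate as an open symbol. FOXJ1 at -1.63 and FOXM1 at 1.11 lie farthest from 0 on either side, and the replicates of FOXB1, which had 4 to 17 counts per library, lie on opposite sides of 0.

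As the study looked for transcripts with m6A peaks in the 3′UTR, the 3′UTRs of the 10 genes were searched for GGACT, a frequent m6A consensus, on the transcript strand only. In the first 300 bases after the stop codon, 5 of the 10 genes held it (FOXK1, FOXK2, FOXO1, FOXP1 and FOXQ1), beside 27.6% of the 14074 protein-coding genes whose 3′UTR is that long. FOXJ1 held 0 in that window and 2 in its full 3′UTR of 1020 bases, while FOXQ1 held 2 in 832 bases. Per kilobase this was 1.96 for FOXJ1 and 2.40 for FOXQ1, against 0.315 to 1.61 for the other 8. The median over all such genes was 0.648, and of the 10 only FOXJ3 (0.315) and FOXO3 (0.402) lay below it. FOXK2, which was higher after knockdown, had 1.61, and FOXO1, which was not called, had 1.48. FOXJ1 and FOXQ1 had the shortest 3′UTRs of the 10. The other 8 held from 1 (FOXJ3) to 8 (FOXK1 and FOXN3) matches, in 3′UTRs of 2653 to 8979 bases. The sites of the lower factors are printed with 10 bases on each side, from GENCODE 29 on GRCh38, with GGACT in capitals.
FOXJ1, chr17:76136809-76136833, minus strand: ggcagaagatGGACTgggggagggg
FOXJ1, chr17:76136435-76136459, minus strand: tgctccacccGGACTccctgggctg
FOXQ1, chr6:1313975-1313999, plus strand: gcccgcgcgcGGACTttgcactttg
FOXQ1, chr6:1314171-1314195, plus strand: cccttcataaGGACTttttttgtct
A match to these letters is a description and not a methylated site, and methylation was not measured in these libraries. The study mapped m6A separately by MeRIP-seq, also in HaCaT cells after ALKBH5 knockdown, and those data were not used here.

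The rest of the forkhead family was measured in the same libraries. Of the 39 other protein-coding forkhead genes, 14 had no count in any library, 23 were not tested, and none of those not tested exceeded 9 counts in a library. Of the 16 tested, 3 rose, 3 fell and 10 were not called, with a median log2 fold change of 0.14 (beside 17.3% lower and 19.3% higher over all genes). FOXM1, a cell cycle factor, rose from 40.8 ± 3.93 to 87.9 ± 0.231 CPM (SD, n = 2), with a log2 fold change of 1.11 (SE of 0.06, adjusted p = 6.4e-17, edgeR). FOXN1, which promotes keratinocyte differentiation, rose by 0.34 (SE of 0.07, adjusted p = 0.00025, edgeR), and FOXP4, a relative of FOXP1, by 0.25 (SE of 0.08, adjusted p = 0.011, edgeR). The FOXM1 groups were far apart, and FOXM1 and FOXN1 stayed called with each library left out. FOXN1 was not called by limma on log2(FPKM + 0.1) (adjusted p = 0.063).

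Among the 3 of these 16 genes that fell, FOXD2 had the largest difference, with a log2 fold change of -0.59 (SE of 0.19, adjusted p = 0.013, edgeR). FOXO4, the relative of FOXO1 and FOXO3, had -0.22 (SE of 0.09, adjusted p = 0.046, edgeR), and FOXA1, a pioneer factor, -0.14 (SE of 0.05, adjusted p = 0.017, edgeR). These calls were fragile. With DESeq2 none of the 3 was called, at adjusted p of 0.096 for FOXD2, 0.20 for FOXO4 and 0.12 for FOXA1. FOXO4 lost its call when any 1 of the 4 libraries was left out, FOXD2 without siControl replicate 1 or siALKBH5 replicate 2, and FOXA1 without siControl replicate 2 or siALKBH5 replicate 1. FOXP4 lost its call with DESeq2 (adjusted p = 0.071) and without siControl replicate 2 or siALKBH5 replicate 2. The others tested, FOXB1, FOXC1, FOXD1, FOXE1, FOXF2, FOXH1, FOXL1, FOXL2, FOXN2 and FOXO6, had log2 fold changes between -0.39 (FOXB1) and 0.50 (FOXH1) and adjusted p-values from 0.068 (FOXC1) to 0.91 (FOXL2) by edgeR.

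Genes that stand around FOXJ1 in multiciliated cells were then examined. Of 14 regulators of multiciliogenesis, 10 were tested, 2 fell, 2 rose and 6 were not called, close to the 17.3% lower and 19.3% higher over all genes, and the median log2 fold change was -0.08. MCIDAS, a coactivator that acts upstream of FOXJ1, gave 28 and 26 counts with siControl against 16 and 8 with siALKBH5, with a log2 fold change of -1.21 (SE of 0.42, adjusted p = 0.021, edgeR). CCNO, a cyclin-like protein needed for centriole amplification, had 11.7 and 14.2 CPM in siControl and 9.90 and 9.05 CPM in siALKBH5, with a log2 fold change of -0.45 (SE of 0.13, adjusted p = 0.0064, edgeR). In both the groups did not overlap. MCIDAS was not called without siControl replicate 1, siControl replicate 2 or siALKBH5 replicate 2 (adjusted p = 0.14, 0.053 and 0.21) and had no adjusted p with DESeq2. CCNO was not called without siControl replicate 2 (adjusted p = 0.17), with DESeq2 (adjusted p = 0.056) or by limma on either FPKM scale (adjusted p = 0.061 and 0.077).

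TP73, a p53 relative that is also required for multiciliated cells, moved in the opposite direction to FOXJ1. It had 8.01 and 7.0 CPM in siControl and 15.4 CPM in both siALKBH5 libraries, with a log2 fold change of 1.04 (SE of 0.13, adjusted p = 5.0e-08, edgeR). TFDP1, a dimerisation partner of E2F4 and E2F5, rose by 0.40 (SE of 0.04, adjusted p = 4.6e-10, edgeR). GMNC, CDC20B and DEUP1 had 0 counts in every library, so the programme was represented only in part. NOTO, also on the list, had 0 counts as well. RFX2 and RFX3, which cooperate with FOXJ1 at cilium genes, had log2 fold changes of 0.12 and -0.09 and were not called.

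Of 43 genes of the motile cilium, 20 were tested, 7 fell, 1 rose and 12 were not called, beside 17.3% lower and 19.3% higher over all genes. The median log2 fold change was -0.35, beside -0.01 over all genes. DNAAF1, an assembly factor of axonemal dynein, gave 38 and 52 counts with siControl against 23 and 20 with siALKBH5, with a log2 fold change of -1.10 (SE of 0.31, adjusted p = 0.0058, edgeR). CAPS, a calcium-binding protein, fell by 0.55 on the log2 scale (SE of 0.16, adjusted p = 0.0071, edgeR). TPPP3, a tubulin polymerisation protein, was the gene that rose, by 0.59 (SE of 0.14, adjusted p = 0.0014, edgeR). The low genes of the list limit it, since 15 of the 43 had at most 3 counts in every library. Some of the 7 that fell were low too. DYNLRB2 gave 25 and 16 counts with siControl against 8 and 9 with siALKBH5. TTC25 gave 19 and 11 with siControl against 5 and 6 with siALKBH5, and DNAH5 24 and 23 against 11 and 6. Such genes could pass the expression filter through siControl alone, which favours a fall among them. With each library left out 4 genes fell, and with DESeq2 2 did. DNAAF1 was not called without siControl replicate 2 (adjusted p = 0.087), nor CAPS with DESeq2 (adjusted p = 0.07), and TPPP3 was not called by limma on either FPKM scale.

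The 8 markers of multiciliated cells, which include FOXJ1, MCIDAS, CCNO and TPPP3, summed to 30.0 and 29.6 CPM in siControl and to 27.3 and 24.1 CPM in siALKBH5. SNTN had 0 counts throughout and DNAI1 a single count in a single library, while TPPP3 had 127 to 248 counts per library, RSPH1 25 to 31 and DNAH5 6 to 24. Of the 6 tested, FOXJ1, MCIDAS, CCNO and DNAH5 were lower, TPPP3 was higher, and RSPH1 was not called. Over all genes tested, 17.3% were lower and 19.3% higher. FOXJ1 was among the genes selected on this comparison, so its fall was known in advance. The calls of MCIDAS and CCNO were lost in the alternative settings given above.

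The genes whose pattern over the 4 libraries was most like that of FOXJ1 were GABRP, AL109811.3, BCAS1, ATP2C2-AS1 and AC102945.2, out of 13625 tested genes with a mean of at least 1 CPM. Likeness was the distance between log2 CPM values centred on each gene's mean, and it ranged from 0.260 for GABRP to 0.456 for AC102945.2. GABRP, a GABA receptor subunit found in epithelia, gave 390 and 422 counts with siControl against 128 and 131 with siALKBH5. BCAS1 gave 251 and 296 counts with siControl against 113 in both siALKBH5 libraries. These genes were chosen for the pattern, and their values are a description.

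Regulators and targets of the FOXO factors were called in both directions. All 29 genes of the FOXO regulator list were tested, of which 13 rose, 5 fell and 11 were not called, beside 19.3% higher and 17.3% lower over all genes, with a median log2 fold change of 0.10. The number that fell was thus at the share of all genes. Among those that rose were 14-3-3 genes, whose proteins hold phosphorylated FOXO in the cytoplasm, with YWHAH at 0.46 (SE of 0.06, adjusted p = 1.8e-07, edgeR), YWHAE at 0.24 (SE of 0.02, adjusted p = 1.8e-09, edgeR) and SFN at 0.22 (SE of 0.02, adjusted p = 7.9e-11, edgeR). SFN also stands among the keratinocyte markers above. SIRT1, a deacetylase of FOXO proteins, fell from 32.9 and 33.5 CPM to 19.9 and 21.5 CPM, a log2 fold change of -0.69 (SE of 0.08, adjusted p = 2.8e-08, edgeR). MDM2, a ubiquitin ligase, fell by 0.41 (SE of 0.07, adjusted p = 4.3e-05, edgeR) and PIK3R1, the regulatory subunit of PI3-kinase, by 0.39 (SE of 0.08, adjusted p = 0.00015, edgeR). The number that rose depended on the test, with 4 genes by limma on log2(FPKM + 1) and 1 on log2(FPKM + 0.1), where YWHAE and SFN were not called.

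Of 34 genes known to be activated by FOXO factors, 29 were tested, 11 fell, 4 rose and 14 were not called, beside 17.3% lower and 19.3% higher over all genes, with a median log2 fold change of -0.08. TNFSF10, the death ligand TRAIL, fell from 314 and 321 CPM to 189 and 186 CPM, a log2 fold change of -0.76 (SE of 0.03, adjusted p = 3.8e-20, edgeR). TXNIP, an inhibitor of thioredoxin, had 1500 CPM in both siControl libraries and 947 and 940 CPM in siALKBH5, a log2 fold change of -0.67 (SE of 0.02, adjusted p = 2.0e-24, edgeR). SESN3, a stress-induced sestrin, fell by 0.45 (SE of 0.04, adjusted p = 9.1e-11, edgeR). KLF2, a Krüppel-like factor, rose from 15 and 21 counts to 91 and 69, a log2 fold change of 2.10 (SE of 0.28, adjusted p = 2.0e-07, edgeR). PINK1, a mitochondrial kinase, rose by 0.33 (SE of 0.05, adjusted p = 5.3e-06, edgeR) and CDKN1A, the cell cycle inhibitor p21, by 0.27 (SE of 0.03, adjusted p = 3.0e-08, edgeR). These genes answer to other factors as well.

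The partners of FOXK, FOXP1 and FOXN3, which include the BAP1 complex and corepressor subunits, were mostly not called. All 28 were tested, 7 rose, 3 fell and 18 were not called, beside 19.3% higher and 17.3% lower over all genes, with a median log2 fold change of 0.03. OGT, the O-GlcNAc transferase bound to BAP1 complexes, fell by 0.25 (SE of 0.03, adjusted p = 6.3e-08, edgeR), the deacetylase HDAC2 by 0.17 (SE of 0.04, adjusted p = 0.0011, edgeR) and the SIN3 subunit SUDS3 by 0.15 (SE of 0.04, adjusted p = 0.0081, edgeR). SAP130, another SIN3 subunit, rose by 0.35 (SE of 0.07, adjusted p = 6.4e-05, edgeR), HCFC1, a BAP1 partner, by 0.24 (SE of 0.05, adjusted p = 0.00015, edgeR) and DVL2, a Dishevelled protein that FOXK factors bind, by 0.18 (SE of 0.05, adjusted p = 0.0034, edgeR). The 7 that rose became 4 with DESeq2, 4 without siControl replicate 2 and 4 without siALKBH5 replicate 1. DVL2 was not called without siALKBH5 replicate 1 (adjusted p = 0.16), and SUDS3 was not called with DESeq2 (adjusted p = 0.076) or without replicate 1 of either group. By limma 0 of the 28 were higher on either FPKM scale.

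**Figure D4:**
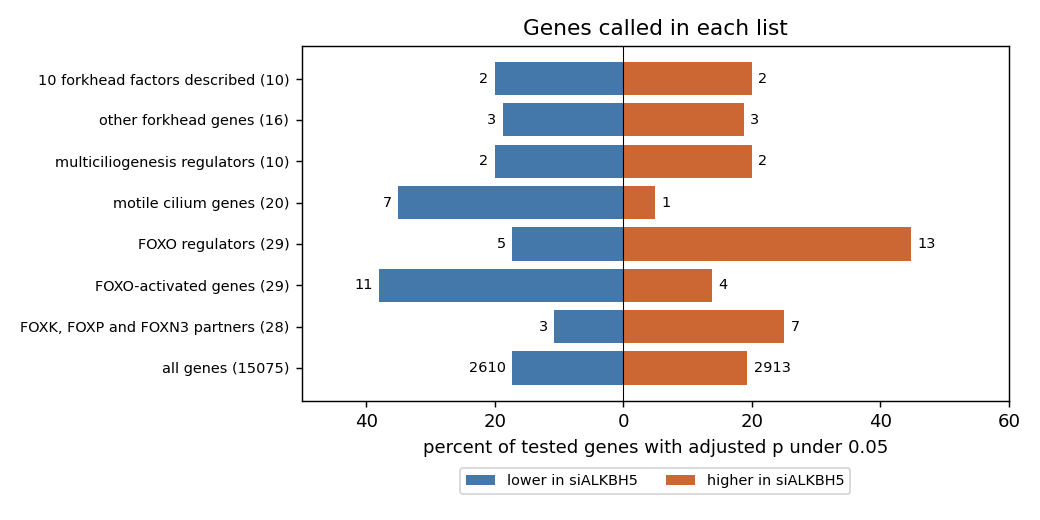
Share of tested genes in each list (number tested in brackets) that were lower (left) or higher (right) in siALKBH5 at an adjusted p under 0.05 by edgeR, with the number of genes at each bar. Motile cilium genes (7 lower, 1 higher) and FOXO-activated genes (11 lower, 4 higher) were called more often in the lower direction. FOXO regulators (13 higher, 5 lower) were called more often in the higher. Over the 15075 genes tested, 17.3% were lower and 19.3% higher. The lists were chosen with earlier results of these data known.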

How the data were processed

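Poly-A RNA of HaCaT cells was sequenced by the authors on a NovaSeq platform. The submitters' processing notes name HISAT2 2.0.5, featureCounts 1.5.0-p3, DESeq2 1.20.0 and hg38, and the annotation is not given in the sources used here. All 58735 gene coordinates of the tables were those of GENCODE 29 on GRCh38. The authors deposited raw counts per gene, without normalization, in 1 table per replicate. The deposited FPKM, scaled within each table, and the authors' deposited log2 fold changes and p-values of 1 library against 1 were not used.

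The 2 groups were compared on the counts in 1 quasi-likelihood fit over the 4 libraries (edgeR 4.0.16, R 4.3.3), after TMM scaling and the filterByExpr filter and without covariates, and p-values were adjusted over the 15075 genes that passed by the Benjamini-Hochberg method. Standard errors were derived from the F statistic of that test. CPM use TMM-scaled library sizes. FPKM were recomputed from the counts, listed gene lengths and library totals. The alternatives were DESeq2 1.42.0, log2 FPKM with a pseudocount of 1 or 0.1 tested in limma 3.58.1 for genes with a mean FPKM of at least 1, other scalings and filters, the replicate block and each library left out. The fits were tested on simulated data. Of 100 genes changed by 1 on the log2 scale, edgeR called 93 and DESeq2 77. The simulation gave every gene the same spread and changed no genes of very few counts, so it is no measure for such genes.

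The 10 factors and all gene lists were chosen with earlier results of these data known. Besides the 10 factors, the genes named are ALKBH5, every other forkhead gene tested, the genes overlapping a factor with at least 10 counts in a library, the 5 genes most like FOXJ1, and from each related list up to 3 called genes in each direction with the largest fold change and a mean of at least 1 CPM. Marker genes, the genes of the lists at 0 counts and the overlapping genes at 0 counts were named after their values were seen. So were RFX2, RFX3, RSPH1, DYNLRB2, TTC25, FOXO3B and FOXO1B. DYX1C1 was matched to DNAAF4 through RefSeq synonyms. The transcript with the longest coding sequence stood for each gene in sequence searches. A named gene, a marker and the helix bases of 1 factor are not reported here.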

Additional observations from a re-analysis of the deposited data

How the results depend on the processing

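All 10 forkhead factors kept the sign of their log2 fold change under the alternatives run for them, except FOXO3, whose value was -0.00 without siALKBH5 replicate 1. On log2(FPKM + 1), which understates low genes, FOXJ1 was at -0.79 instead of -1.63. With each library left out, the log2 fold change of FOXJ1 lay between -1.91 and -1.37 and that of FOXQ1 between -0.48 and -0.37. FOXK1 lay between 0.15 and 0.16 and FOXK2 between 0.18 and 0.27. These ranges are a description, since the factors were selected on this comparison. The minimum fold change is stricter by construction. The cause of the other changes below was not tested. Limma tested 11823 genes, among them 9 of the 10 factors, 27 of the 29 FOXO regulators and 27 of the 28 partners. It tested 12 of the 16 other forkhead genes, 6 of the 10 multiciliogenesis regulators, 7 of the 20 motile cilium genes and 26 of the 29 FOXO-activated genes. MCIDAS and DNAAF1 were left out by its filter. Smaller counts on the FPKM scales thus include genes that were not tested there.

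Lower genes numbered 2610 and higher genes 2913. Lower genes were 1444 with DESeq2, 1487 on log2(FPKM + 1), 1209 on log2(FPKM + 0.1) and 196 with a log2 fold change of at least 1, and higher genes were 1491, 1227 and 244 in the last 3 settings. Of the 10 factors, 1 was lower and 0 were higher with that fold change, and 0 were higher on either FPKM scale. Of the other forkhead genes, 0 were lower and 1 higher with the fold change, 0 lower with DESeq2, and 1 lower and 1 higher on log2(FPKM + 0.1). With each library left out 1 to 2 were lower and 2 to 4 higher. Of the multiciliogenesis regulators, 1 was lower and 1 higher with the fold change, 0 were lower with DESeq2 or on either FPKM scale, and 0 to 2 with each library left out. Motile cilium genes numbered 4 lower and 0 higher with the fold change, 2 lower with DESeq2, 2 lower and 0 higher on log2(FPKM + 1), 3 lower and 0 higher on log2(FPKM + 0.1), and 4 lower with each library left out. FOXO regulators numbered 0 in both directions with the fold change, and 4 and 1 higher on the FPKM scales. FOXO-activated genes numbered 0 lower and 1 higher with the fold change. Partners of FOXK, FOXP and FOXN3 numbered 0 in both directions with the fold change, 4 higher with DESeq2, 1 lower and 0 higher on either FPKM scale, and 4 to 6 higher with each library left out.

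The labels do not tie libraries of the same replicate to a shared culture or day, and the deviations of same-numbered libraries from their group means had a correlation of 0.0337 over genes. With the replicate block, 2831 genes were lower and 3091 higher, 2 of the 10 factors were lower and 2 higher, and of the other forkhead genes 3 were lower and 4 higher. At 21 to 116 counts per library, FOXJ1 and FOXP1 are the factors whose values depth limits most, with standard errors of 0.27 and 0.18.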
